A study of Gallus gallus with 6 samples.

Results

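miR-499 was followed through leg muscle development in Xinghua chicken, a breed of Gallus gallus, by its 2 mature arms, gga-miR-499-5p and gga-miR-499-3p (the prefix marks the chicken and is left out below). The members were the entries with those names in each library's table, 2 of the 846 entries listed over the series, and both were listed in all 6 libraries. The libraries were small RNA of leg muscle from female embryos of 11 days (E11) and 16 days (E16) and of female chicks 1 day past hatching (P1), with 2 samples of each age, and no genotype, strain cross or treatment separated the groups. The libraries deepened with age, from 303556 and 589154 counts in the E11 tables to 1202481 and 948589 in those of E16 and 2641042 and 2201359 in those of P1. The labels do not say whether the samples of an age were separate birds or pools, nor which leg muscle was taken, and muscles of the chick leg differ in fibre type. The p-values below therefore rest on the spread among these samples alone, and that spread may be technical. The labels also mention RNase R treatment and removal of ribosomal RNA, and what that meant for small RNA libraries is not stated there.

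miR-499 is one of the muscle miRNAs that lie inside a myosin gene. It is made from an intron of MYH7B, a slow-type myosin heavy chain gene, so its precursor is transcribed with its host. The hairpin is cut to a duplex, of which the guide strand is loaded into Argonaute to repress target mRNAs, and the other is mostly lost. Here the 5p arm held most of the counts and is called the guide, though loading was not measured. In the mouse, miR-499 acts with miR-208b to favour the slow fibre programme, in part by repressing Sox6, itself a repressor of slow-fibre genes. In the RefSeq gene table of the GRCg7b assembly, which is not the galGal4 build named in the submitters' processing notes, MIR499A lies within the span of MYH7B on chromosome 20, and MYH7B is the only gene in that table that spans it. The neighbours of MYH7B there are TRPC4AP and GSS. Host mRNA was not measured in these libraries.

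The muscle miRNAs miR-1a-3p, miR-133a-3p and miR-206 were present in every library, miR-1a-3p with only 16 and 20 counts in the E11 libraries. Presence alone cannot test the tissue label, since entries of every other list below were counted in every library too. The muscle list held miR-499, miR-1, miR-133 and miR-206, with miR-208 and miR-486, though no entry was named miR-208 or miR-486. It made up 1.28% and 1.04% of counts in the E11 libraries, 7.37% and 7.92% in those of E16, and 12.1% and 15.4% in those of P1. At E11 the muscle share, miR-499 included, was of the same order as the epithelial, leukocyte and endothelial shares given below. Of the list's counts, miR-499-5p alone gave 51.1% and 33.9% in the E11 libraries. It gave 21.5% and 38.5% in those of E16, and 42.9% and 18.8% in those of P1. The share of the list is thus partly miR-499 itself. Markers of other cell types differed between the ages as well. The 8 epithelial entries summed to 1.18% and 1.21% of counts in the E11 libraries, 0.0447% and 0.0158% in those of E16, and 0.0997% and 0.00309% in those of P1. The 3 erythroid entries (miR-144 and miR-451) took between 0.285% and 0.631% in 5 libraries and 3.05% in P1 replicate 1. The 2 endothelial entries (miR-126) took 1.55% and 2.18% at E11 and between 3.77% and 5.96% later. The 10 leukocyte entries took 2.19% and 1.01% in the E11 libraries, 0.921% and 0.915% in those of E16, and 0.834% and 0.678% in those of P1. The 4 cartilage entries took 0.525% and 0.329%, then 0.148% and 0.137%, then 0.0872% and 0.0971%, in the same order, and the 4 neural entries took at most 0.0115% of any library. The part of these cell types in the results below was not tested.

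miR-499-5p, the guide arm, was higher at each later age. Its counts were 1994 and 2082 in the E11 libraries, 19008 and 28909 in the E16 libraries, and 136718 and 63858 in the P1 libraries. For TMM-normalized CPM, counts are scaled to a common library size and divided by a TMM factor of each library. The factors were 1.13 and 1.18 for E11, 1.04 and 1.02 for E16, and 0.879 and 0.804 for P1. They thus raise the later ages relative to plain shares of counts. miR-499-5p then had 5824 and 3002 CPM for E11, 15192 and 29852 CPM for E16, and 58937 and 36096 CPM for P1. Every library of a later age lay above every library of an earlier one on this scale. So did 27.3% of all tested entries from E11 to E16, 26.3% from E16 to P1 and 30.4% from E11 to P1. The space between neighbouring ages was uneven. The lower E16 library was 2.61 times the higher E11 library, whereas the lower P1 library was only 1.21 times the higher E16 library.

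The order of E16 and P1 depended on the scaling. As a plain share of all counts, miR-499-5p took 0.657% (95% exact binomial interval 0.628% to 0.686%) and 0.353% (0.338% to 0.369%) at E11. The E16 libraries gave 1.58% (1.56% to 1.60%) and 3.05% (3.01% to 3.08%), and the P1 libraries 5.18% (5.15% to 5.20%) and 2.90% (2.88% to 2.92%). On this scale P1 replicate 2 lay below E16 replicate 2, so the libraries of the 2 later ages overlapped. These intervals cover only the counting error within a library and take reads as independent. Reads without molecular identifiers are not independent molecules, so the intervals may be too narrow. Counting error reckoned in this way was small beside the spread between samples of an age. The 2 samples differed in CPM by 1.94-fold at E11, 1.97-fold at E16 and 1.63-fold at P1, or by 0.96, 0.97 and 0.71 on the log2 scale, against counting errors of at most 0.0452.

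Among named miRNAs, miR-499-5p ranked 17th and 30th by count in the E11 libraries, 10th and 7th in those of E16, and 5th and 7th in those of P1. It was among the 30 most abundant named miRNAs in every library and among the first 10 of them from E16 on. With unnamed entries included, it ranked 25th and 41st in the E11 libraries, 15th and 11th in those of E16, and 8th and 11th in those of P1.

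miR-499-3p, the passenger arm of the same hairpin, followed the same order at a far lower level. Its counts were 53 and 198 in the E11 libraries, 1132 and 1045 in the E16 libraries, and 9496 and 3684 in the P1 libraries. These gave 154.8 and 285 CPM for E11, 905 and 1079 CPM for E16, and 4094 and 2082 CPM for P1, again without overlap between ages. Depending on the ages compared, between 26.3% and 30.4% of all tested entries also had both later libraries above both earlier ones in CPM. Unlike the 5p arm, the 3p arm also kept the ages apart as a plain share of counts, with 0.167% in the lower P1 library against 0.110% in the higher E16 library. How many of all entries did so on that scale was not computed. Among named miRNAs it ranked between 79th and 95th at E11 and reached 25th and 43rd at P1. No other entry in the tables came within 10% of either arm in every library, so neither appeared to be listed again with the same counts. An entry that took a different share of miR-499 reads would not be seen this way, and sequences were not compared.

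**Figure D1:**
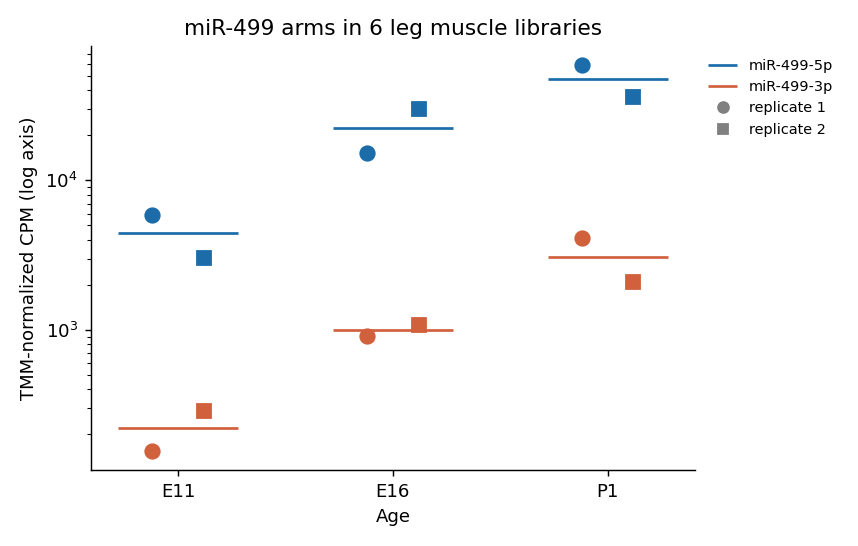
TMM-normalized CPM (log axis) of miR-499-5p and miR-499-3p against age. Each point is 1 library, circles for replicate 1 and squares for replicate 2, and lines mark the mean of 2 libraries; both arms are lowest at E11 and highest at P1, and within an age the higher replicate is not the same one throughout.

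Differences between ages were tested with edgeR's quasi-likelihood F-test across the 289 entries that passed a low-count filter, both arms among them, with Benjamini-Hochberg adjustment over all 289 and a threshold of 0.05. "Rose" is used only past that threshold. From E11 to E16, miR-499-5p went from a mean of 4413 ± 1996 to 22522 ± 10366 CPM (SD, n = 2 and 2) and rose 5.11-fold, a log2 fold change of 2.35 (SE 0.51, edgeR adjusted p = 0.0392). miR-499-3p went from 220.1 ± 92.4 to 992 ± 123 CPM, a log2 fold change of 2.17 (SE 0.51), and just missed the threshold (edgeR adjusted p = 0.0544). Over all entries, 6.57% were called in this comparison and 2.42% were called higher. The call of miR-499-5p was lost in each of the 6 fits without 1 library, with log2 fold changes between 1.92 (without E16 replicate 2) and 3.03 (without E11 replicate 1) and edgeR adjusted p between 0.0698 and 0.299. With all 6 libraries it was also lost with RLE scaling (adjusted p = 0.0667), library totals (0.0547), named entries only (0.0525) and without the epithelial and erythroid lists (0.0503), and in the fit of the 2 ages alone (0.0619). DESeq2 called both arms, as did edgeR without the low-count filter.

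Across hatching, from E16 to P1, neither arm passed. miR-499-5p went to 47516 ± 16151 CPM at P1 (SD, n = 2), a log2 fold change of 1.08 (SE 0.49, edgeR adjusted p = 0.399). miR-499-3p went to 3088 ± 1422 CPM, a log2 fold change of 1.64 (SE 0.50, edgeR adjusted p = 0.329). In this comparison edgeR called 0 of 289 entries, 37 had an unadjusted p under 0.05 and DESeq2 called 2, so the test left every entry uncalled. The unadjusted edgeR p was 0.0636 for the 5p arm and 0.0133 for the 3p arm. Without P1 replicate 1 the log2 fold changes were 0.59 and 0.99 for the 5p and 3p arms.

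Over the whole span from E11 to P1 both arms rose. The log2 fold change was 3.43 (SE 0.53) for miR-499-5p, a 10.8-fold rise, and 3.80 (SE 0.55) for miR-499-3p, a 14.0-fold rise, both with edgeR adjusted p = 0.00646. Of all entries 30.4% were called in this comparison and 14.2% were called higher at P1, and by size of rise the 3p arm was the 5th and the 5p arm the 8th of 289. Without P1 replicate 1 miR-499-5p had 2.96 (edgeR adjusted p = 0.0545), and without E16 replicate 2, a library of neither age compared, the arms had 3.48 and 3.94 (adjusted p = 0.0524 and 0.0522). Without E11 replicate 1 miR-499-5p had 4.05, and without P1 replicate 1 miR-499-3p had 3.19, and these 2 calls were kept. In bulk tissue, a change in the number of cells that make miR-499 and a change in its amount per cell cannot be told apart.

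The arm ratio is the count of the 5p arm over that of the 3p arm in the same library, and library scaling cancels from it. It was 37.6 and 10.5 in the E11 libraries, 16.8 and 27.7 in the E16 libraries, and 14.4 and 17.3 in the P1 libraries. Every library was dominated by the 5p arm, and the E11 libraries held both the highest and the lowest ratio of the series, with all 4 later libraries between them. Put as a share of both arms, the 3p arm took 2.59% (95% exact binomial interval 1.95% to 3.37%) in E11 replicate 1, from 53 of 2047 counts, and 8.68% (7.56% to 9.92%) in replicate 2, from 198 of 2280. In the E16 libraries it took 5.62% (5.31% to 5.95%) and 3.49% (3.28% to 3.70%), and in the P1 libraries 6.49% (6.37% to 6.62%) and 5.45% (5.28% to 5.63%). The intervals of the 2 replicates did not overlap at any age, so the spread between replicates went beyond the counting error of independent reads.

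**Figure D2:**
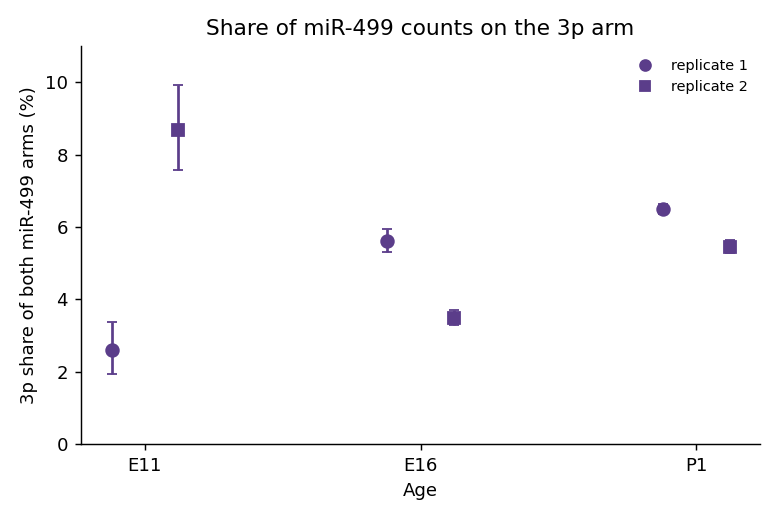
Share of miR-499 counts on the 3p arm, in percent, against age. Each point is 1 library (circle, replicate 1; square, replicate 2), and bars are 95% exact binomial intervals for counting error; the E11 replicates, at 2.59% and 8.68%, enclose the 4 later libraries.

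No change of the arm ratio with age was detected. A limma model of the log2 arm ratio was fitted over the 47 named hairpins whose arms both passed the low-count filter. For miR-499 the change in log2 ratio was 0.12 (SE 0.65, limma adjusted p = 0.932) from E11 to E16, -0.45 (SE 0.65, adjusted p = 0.812) from E16 to P1, and -0.32 (SE 0.65, adjusted p = 0.777) from E11 to P1, with mean log2 ratios of 4.31 ± 1.30, 4.43 ± 0.51 and 3.98 ± 0.19 (SD, n = 2 per age). With that error and 2 samples per age, shifts well beyond the SE could have gone unseen. The values do not show that the arms were kept in a fixed proportion. The sign of the changes to and from E11 turned with single libraries: the change from E11 to E16 was -0.79 without E11 replicate 2 and 1.04 without E11 replicate 1. Of the 47 hairpins, limma called 10.6% from E11 to P1 and 0 in each of the other comparisons, where 2 (E11 to E16) and 3 (E16 to P1) had an unadjusted p under 0.05.

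For miR-499, the replicates lay farther apart in arm ratio at E11 and E16 than at P1. Each age gives a single difference, so spread cannot be compared between ages. The 3p arm also had fewer counts at E11, 53 and 198, than at P1, 9496 and 3684. The replicates differed by 1.83 on the log2 scale at E11, where the median over the 47 hairpins was 0.90 and 6 hairpins differed more. They differed by 0.72 at E16, with a median of 0.37 and 9 hairpins differing more, and by 0.27 at P1, below the median of 0.40. In its skew to one arm, miR-499 lay on different sides of the median hairpin in different libraries. In P1 replicate 1, the deepest library, 28 of the 47 hairpins had a smaller minor arm share than miR-499, and the median minor arm share was 2.28%. Over the 6 libraries this number lay between 17 in E11 replicate 1, where the median was 4.61%, and 29 in E11 replicate 2. For miR-133a, a muscle hairpin in which the 3p arm is the guide, the minor 5p arm took 5.32% and 6.86% of both arms in the E11 libraries, 3.14% and 3.67% in those of E16, and 1.74% and 2.07% in those of P1.

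The other tested members of the muscle list gave the setting for miR-499. These were 8 entries, those of miR-1 and miR-133 and that of miR-206, the skeletal muscle miRNA already present in embryonic myoblasts. Most miR-1 and miR-133 entries are made together from shared precursors, and both miRNAs mark differentiated striated muscle. Both arms of miR-133a and several entries of miR-1a are among the 8, so these are not 8 independent observations. From E11 to E16, 4 of the 8 rose and none fell, where 2.42% of all entries were called higher, with a median log2 fold change of 2.36 against -0.03 over all 289 entries. From E16 to P1 none of the 8 passed, with a median of 0.96 against 0.09. From E11 to P1, 6 of the 8 rose and none fell, where 14.2% of all entries were called higher, with a median of 3.37 against -0.15. The log2 fold changes of miR-499-5p lay close to these medians in each comparison, and the list was chosen with earlier results of these data known. miR-1a-3p (5.52, SE 0.71) and miR-133a-3p (4.94, SE 0.46) had larger log2 fold changes from E11 to P1 than either miR-499 arm, and miR-206 had a smaller one (1.06, SE 0.51).

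**Figure D3:**
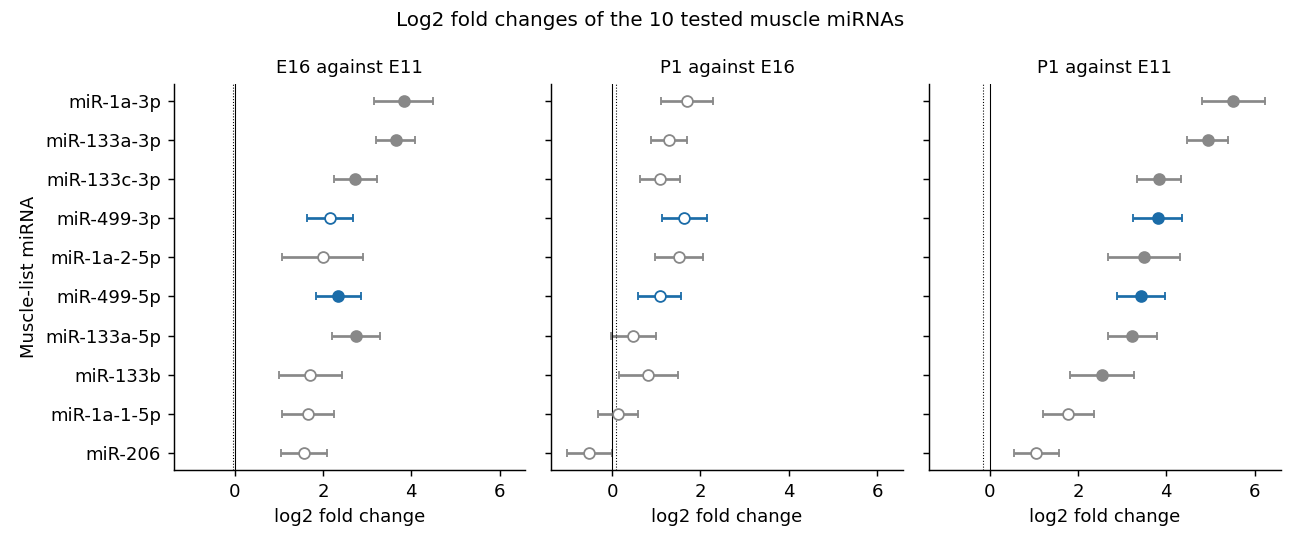
Log2 fold changes with SE (bars) of the 10 tested muscle-list miRNAs in the 3 comparisons, miR-499 arms in blue. Filled points passed edgeR's adjusted threshold and open points did not; dotted lines mark the median of all 289 entries. The miR-499 arms lie in the middle of the list, above miR-206 and below miR-1a-3p and miR-133a-3p from E11 to P1.

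The balance among muscle miRNAs was followed as ratios of counts within a library, which compare reads and not molecules, since ligation and amplification differ between sequences. In these libraries the ratio of miR-499-5p to miR-206 was higher at each later age, a difference that the test below cannot establish. The E11 libraries held 3.52 and 1.94 times as many counts of it as of miR-206, the E16 libraries 3.85 and 5.36 times, and the P1 libraries 32.8 and 7.41 times. The 3 ages did not overlap, and the mean log2 ratio was 1.39, 2.18 and 3.96 in the order of age. Between 26.3% and 30.4% of single entries also had both later libraries above both earlier ones in CPM. No such share was computed for ratios. The difference from E16 to P1, 1.78 on the log2 scale, was 0.71 when P1 replicate 1 was left out and 2.85 when P1 replicate 2 was. miR-206 itself stood at 1653 and 1550 CPM in E11 muscle, 3948 and 5572 CPM in those of E16, and 1799 and 4873 CPM in those of P1, so that its P1 libraries lay on both sides of the lower E16 library. By exact two-sided permutation, p was 0.333 between any pair of ages, which is the smallest p that 2 samples against 2 allow, and it cannot pass 0.05.

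Against miR-133a-3p and miR-1a-3p, miR-499-5p had its highest mean ratios at E11. The E11 libraries held 1.81 and 0.847 times as many counts of it as of miR-133a-3p, the E16 libraries 0.321 and 0.795 times, and the P1 libraries 0.863 and 0.259 times. In E11 replicate 1 it was the most abundant member of the muscle list, with 51.1% of the list's counts, and in the other 5 libraries it was second to miR-133a-3p, with between 18.8% and 42.9%. Relative to miR-1a-3p it had 125 and 104 times the counts in the E11 libraries, 34.6 and 48.1 times in those of E16, and 63.3 and 14.5 times in those of P1. miR-1a-3p was represented by only 16 and 20 counts in the E11 libraries. The exact permutation p was 0.333 from E11 to E16 for both partners. From E16 to P1 it was 1 for both, with overlapping libraries. From E11 to P1 it was 0.667 against miR-133a-3p and 0.333 against miR-1a-3p. These 9 tests were not adjusted, as none could pass.

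**Figure D4:**
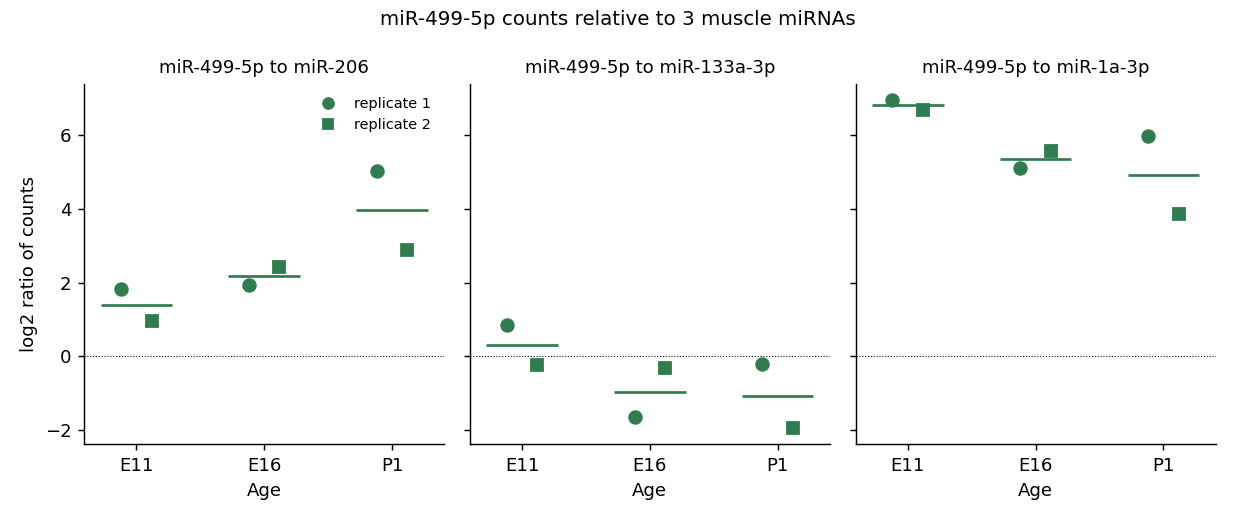
Log2 ratio of miR-499-5p counts to those of miR-206, miR-133a-3p and miR-1a-3p against age. Each point is 1 library (circle, replicate 1; square, replicate 2), lines mark the mean of 2 libraries and the dotted line marks equal counts; the ratio to miR-206 is highest at P1, and the P1 replicates lie far apart in all 3 panels.

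Between the 2 P1 libraries, miR-499 and the other muscle entries differed in opposite directions. P1 replicate 1 had the higher level of both miR-499 arms, by 0.71 (5p) and 0.97 (3p) on the log2 scale, but the lower level of each of the 8 other tested muscle entries, whose median difference was -0.92. miR-1a-3p was 2.67-fold, miR-206 2.71-fold and miR-133a-3p 2.04-fold higher in replicate 2. Over all 289 entries 43.6% were higher in replicate 1. At E16, miR-499-5p was higher in replicate 2 by 0.97 on the log2 scale. There 4 of the 8 other entries were higher in replicate 1 and 4 in replicate 2, with a median difference of -0.0031 on the log2 scale. Of all 289 entries 55.7% were higher in E16 replicate 1. At E11 the 5p arm was higher in replicate 1 and the 3p arm in replicate 2. In E11 replicate 1, 5 of the 8 others were higher, beside 48.8% of all entries. P1 replicate 1 was also the library with 3.05% erythroid counts, against 0.622% in replicate 2. Its epithelial share was higher as well, 0.0997% against 0.00309%, and so was its leukocyte share, 0.834% against 0.678%. Its endothelial, cartilage and neural shares were lower. The part of blood or other tissue, of muscle sampled or of library preparation in this split was not tested.

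By the likeness of their pattern over the 6 libraries, the nearest named entries to miR-499-5p were let-7d, let-7g-5p, miR-15b-5p, miR-133c-3p and miR-1a-3p. Likeness was Pearson's correlation of log2 CPM, ranked among 197 named entries, and it measures shape without regard to the size of change. The coefficients were 0.994, 0.973, 0.961, 0.939 and 0.937, beside a median of -0.08 over the 197, and Spearman's rho was 1, 0.943, 0.943, 0.886 and 0.943. The value for miR-499-3p was 0.926 (rho 0.943), for miR-133a-3p 0.911, 12th in order, and for miR-206 0.537, 62nd in order. The points are 3 ages of 2 libraries each and share library depth, which also increased with age, so they are no more than a description. let-7d was sparse, with 4 counts in E11 replicate 1 and 8.65 to 25.4 CPM over the libraries. let-7g-5p, at 115 to 481 CPM, had a log2 fold change of 1.60 (SE 0.51) from E11 to P1, and miR-15b-5p, at 414 to 888 CPM, one of 0.96 (SE 0.41). Neither passed, with edgeR adjusted p = 0.05001 and 0.120.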

How the data were processed

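Values were used as deposited. The authors' files give a whole number per miRNA, used here as read counts although the file headers call the column FPKM. If they are rounded FPKM after all, the count tests do not suit them, and the sources used here do not settle this. Trim Galore, Bowtie, TopHat, Cufflinks and galGal4 are named, without roles, in the submitters' processing notes. Tables list only values of at least 1, so an entry absent from a table counted as 0. Provisional, unnamed entries (312 of 846, between 32.1% and 42.9% of a library's counts) stayed in library sizes and tests. With edgeR 4.0.16 in R 4.3.3, filterByExpr (minimum count 10, minimum total 15) left 289 entries. After TMM scaling, all 6 samples entered 1 quasi-likelihood fit with a term for each age, with 3 residual degrees of freedom. SE is the log2 fold change divided by the square root of F. Arm ratios, log2((5p + 0.5)/(3p + 0.5)), were fitted in limma 3.58.1. DESeq2 1.42.0, other scalings, filters and left-out libraries were alternatives. Both fits were also run on simulated counts whose spread between samples was set below that estimated from these data. That run does not show how the fits perform at the spread found here. Replicates differed beyond sampling noise (chi-square per degree of freedom between 171 and 489) and were kept apart. Samples were grouped by the ages in their titles. Named entries were the arms, the tested muscle list and the 5 entries most like miR-499-5p. Members and lists were chosen with earlier results of these data known. Seeds were to be compared as well, but mature sequences were not used here.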

Additional observations from a re-analysis of the deposited data

How the results depend on the processing

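For miR-499-5p at E16 against E11, the log2 fold change stayed positive in every alternative run but passed in only 2 of the 8 that kept all 6 libraries or both ages, DESeq2 and no low-count filter. It was 2.41 with RLE scaling, 2.20 with library totals, 2.30 with named entries only, 2.45 with only the 2 ages compared, 2.43 with the replicate block (edgeR adjusted p = 0.0962) and 2.33 without the epithelial and erythroid lists, an alternative chosen after seeing the data. miR-499-3p passed there with DESeq2 (2.22) and with no low-count filter (2.45). At P1 against E11 both arms passed in each of these 8 alternatives, and at P1 against E16 in none. With library totals the median of all entries was -0.62 at P1 against E11, -0.19 at E16 against E11 and -0.21 at P1 against E16.

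Without 1 library, miR-499-5p ranged from 1.92 to 3.03 (E16 against E11), 0.59 to 1.56 (P1 against E16) and 2.96 to 4.05 (P1 against E11). miR-499-3p ranged from 1.92 to 2.66, 0.99 to 2.05 and 3.19 to 4.31 in the same order. A fit that left an age with 1 library assumed that it varies like the others. The number of entries called, 19, 0 and 88, ranged from 0 to 11, 0 to 1 and 10 to 61. At E16 against E11 it was 38 with DESeq2, 46 with no filter and 12 with named entries only. At P1 against E16 it was 2 with DESeq2 and 13 with no filter, and at P1 against E11 28 with only the 2 ages and 30 with the replicate block.

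The change in arm ratio ranged without 1 library from -0.79 to 1.04 (E16 against E11), -0.81 to -0.09 (P1 against E16) and -1.24 to 0.59 (P1 against E11), and the last was 0.12 with precision weights. The log2 ratio of miR-499-5p to miR-133a-3p at P1 against E16 (-0.10) ranged from -0.96 to 0.77, and that to miR-1a-3p (-0.43) from -1.49 to 0.63; the other 7 kept their sign. The cause of these shifts was not tested. Deviations of same-numbered libraries correlated at -0.02 (E11 and E16), -0.03 (E11 and P1) and 0.33 (E16 and P1). The replicate numbers were not taken as pairs, and whether same-numbered E16 and P1 libraries share a factor was not tested. With the replicate block, the log2 fold changes at P1 against E16 were 1.01 for miR-499-5p and 1.65 for miR-499-3p. Depth limits the 3p arm at E11, with 53 counts in replicate 1, and miR-1a-3p and let-7d, with 16 and 4 counts there.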
